A study of Mus musculus with 6 samples.

Results

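The nuclei described here come from mice made obese by diet (DIO, labelled hfd), and were split by the fast transmitter that they are equipped to release, GABA or glutamate. The study compared rapamycin with vehicle in chow-fed mice, in DIO mice and in chow-fed ob/ob mice (OB), which lack functional leptin. Hypothalamic nuclei of each diet or genotype formed 1 pool, were sorted for NeuN, a nuclear protein of neurons, and were captured with a 10x Genomics 3' kit. A pair of hashtags, antibody-linked barcodes that mark the origin of a nucleus, tell the treatments apart within a pool: by the deposited key, tag 1 marks rapamycin and tag 2 vehicle. The groups used are therefore DIO mice given rapamycin and DIO mice given vehicle, with chow and OB mice under the same treatments beside them. Dose, route, length of treatment, strain, age and the number of mice behind a hashtag are not given in the sources used here.

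A DIO nucleus was given a treatment when the log2 count of 1 tag, after the mean of that tag over the pool had been subtracted, exceeded the other by at least 1. It was called GABAergic with at least 2 UMIs (unique molecular identifiers, each 1 captured RNA molecule) of Gad1, Gad2 and Slc32a1 together and none of Slc17a6. It was called glutamatergic with at least 1 UMI of Slc17a6 and none of the other 3. Gad1 and Gad2 make GABA, Slc32a1 loads it into vesicles, and Slc17a6 loads glutamate. Members were therefore chosen by their hashtag counts and by their UMIs of these 4 genes. This rule kept 5197 of the 34542 nuclei of the series. GABAergic nuclei numbered 1336 with rapamycin and 1134 with vehicle, and glutamatergic nuclei 1490 with rapamycin and 1237 with vehicle. Since the rule reads these 4 genes, their levels are no result. Just inside the rule lay 998 nuclei with a GABAergic sum of exactly 2 and 1553 glutamatergic nuclei with a single Slc17a6 UMI. Just outside lay 1338 nuclei with a GABAergic sum of 1, while 3896 nuclei held none of the 4 genes and 522 held both kinds. The margin between tags was 1 to under 1.5 in 429 nuclei and 0.5 to under 1 in 247.

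Rapamycin inhibits mTORC1, a kinase complex that raises protein and lipid synthesis when nutrients, insulin and other growth signals are plentiful. In the hypothalamus, mTORC1 acts in neurons that sense leptin and other nutrient signals and set food intake. Most of the neurons in this region that release GABA or glutamate also release peptides, so a transmitter class gathers many neuron types of different function.

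The DIO sums held 8563917 UMIs with rapamycin and 8238538 with vehicle in GABAergic nuclei, and 9955608 and 9408262 in glutamatergic nuclei. Rapamycin nuclei were shallower: the median was 6043.5 UMIs with rapamycin against 6691.5 with vehicle in GABAergic nuclei, and 6157 against 6989 in glutamatergic nuclei. At least 5 of 8 neuronal markers (Rbfox3, Snap25, Syt1 and others) were seen in 98.9% to 99.6% of the nuclei of each sum. GABAergic nuclei made up 21.7% (20.7 to 22.7) of the rapamycin nuclei and 23.7% (22.5 to 24.9) of the vehicle nuclei, and glutamatergic nuclei 24.2% (23.1 to 25.3) and 25.8% (24.6 to 27.1). After every nucleus had been thinned to 2000 UMIs, which left out 183 rapamycin and 147 vehicle nuclei, the shares were 7.12% with rapamycin against 7.43% with vehicle for GABAergic nuclei and 12.3% against 12.2% for glutamatergic nuclei. Barcodes shared between pools numbered 31 for DIO and chow and 33 for DIO and OB.

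Each treatment is 1 hashtag, so there is 1 sample per group and no test. UMIs were summed over the nuclei of a class and treatment and scaled to CPM, counts on a common total that makes sums of different depth comparable. Values compared are log2 ratios of CPM, rapamycin over vehicle, followed in brackets by an exact 95% interval (Clopper-Pearson, as for shares) that covers counting error only. It takes UMIs as independent and leaves out differences between mice and between nuclei. A gene was measured when both sums together held at least 100 UMIs, and was counted as higher or lower when its log2 ratio reached 0.3 or -0.3 and the interval left out 0. RNA in nuclei was measured, so a lower sum cannot tell fewer nuclei that express a gene from less RNA in each.

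Across all genes, more were counted as higher than as lower with rapamycin in both classes. In GABAergic nuclei, 598 of 11202 measured genes (5.34%) were counted as higher and 252 (2.25%) as lower. In glutamatergic nuclei, the counts were 714 of 11621 (6.14%) and 279 (2.4%). The median over all measured genes was 0.02 in GABAergic and 0.03 in glutamatergic nuclei, with 5% to 95% of genes between -0.27 and 0.38 and between -0.27 and 0.39. This lean depends on the scaling: higher genes made up 70.4% of the GABAergic and 71.9% of the glutamatergic calls, and 54.8% and 58.3% with TMM factors. The classes shared part of their calls. Of 11091 genes measured in both, 131 were counted as higher in both, which is 22.1% of the GABAergic and 19.6% of the glutamatergic genes so counted. Lower in both were 39 genes, or 16.7% and 15.9%. In all, 11 genes were counted in opposite directions. Both classes carry the same pair of hashtags, so the overlap does not come from separate mice.

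Of the 10 genes named as higher in each class, Pcsk1n was named in both, and Bsg, Scg2, Nap1l5, Smdt1 and Sft2d3, named for GABAergic nuclei, were counted as higher in glutamatergic nuclei too. The naming rule took, in each class, the 10 genes with the highest lower bound and the 10 with the lowest upper bound of the interval, so these values chose the genes and are a description. Pcsk1n (ENSMUSG00000039278, chromosome X, 7919822 to 7924410, GRCm38.p6), the precursor of an inhibitor of the prohormone convertase Pcsk1, stood at 57.0 CPM with rapamycin against 36.3 with vehicle, a log2 ratio of 0.65 (0.44 to 0.86), in GABAergic nuclei, and at 53.9 CPM with rapamycin against 31.8 with vehicle, a log2 ratio of 0.76 (0.56 to 0.97), in glutamatergic nuclei. Its ratio was above 0 in 9 of 9 GABAergic and 9 of 10 glutamatergic clusters that held at least 50 nuclei of each treatment. A Pcsk1n UMI was seen in 29.3% (26.9 to 31.9) of rapamycin and 22.3% (19.9 to 24.8) of vehicle GABAergic nuclei, and in 28.8% (26.5 to 31.2) and 20.9% (18.6 to 23.2) of glutamatergic nuclei. DIO nuclei with oligodendrocyte markers, a guide to free RNA, held one in 15.4% (5.86 to 30.5) of 39 rapamycin nuclei and 0 of 20 vehicle nuclei, which allows a share of up to 15%, and the part of free RNA in the ratio was not tested. Nuclei of the DIO pool in neither class, which the rule did not use, gave 0.77 (0.61 to 0.93).

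Scg2 (ENSMUSG00000050711, chromosome 1, 79434366 to 79440026), a granin stored in dense-core vesicles, stood at 75.9 CPM with rapamycin against 46.9 with vehicle, a log2 ratio of 0.70 (0.51 to 0.88), in GABAergic nuclei. In glutamatergic nuclei it had 77.2 CPM with rapamycin against 61.4 with vehicle, a smaller ratio of 0.33 (0.17 to 0.49), and the difference between the classes was 0.37 (0.13 to 0.60). Bsg (ENSMUSG00000023175, chromosome 10, 79704358 to 79711979), the partner protein of lactate transporters at the cell surface, stood at 30.5 CPM with rapamycin against 17.4 with vehicle, a log2 ratio of 0.81 (0.51 to 1.12), in GABAergic and at 28.7 CPM with rapamycin against 18.5 with vehicle, a log2 ratio of 0.64 (0.36 to 0.92), in glutamatergic nuclei. Nap1l5 (ENSMUSG00000055430, chromosome 6, 58905233 to 58907126), an imprinted gene of the nucleosome assembly protein family, stood at 163 CPM with rapamycin against 110.3 with vehicle, a log2 ratio of 0.57 (0.44 to 0.69), in GABAergic nuclei. In glutamatergic nuclei its ratio was 0.49 (0.37 to 0.61). Each of these 4 genes was counted as higher in both classes, and the nuclei of neither class gave 0.56 (0.44 to 0.68) for Scg2, 0.34 (0.13 to 0.55) for Bsg and 0.46 (0.37 to 0.55) for Nap1l5.

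The remaining genes named as higher in GABAergic nuclei include 3 with products in mitochondria. Trmt10c, a subunit of mitochondrial RNase P, had 133 UMIs in rapamycin and 68 in vehicle nuclei and a ratio of 0.91 (0.48 to 1.36). Mrps34, a protein of the mitochondrial ribosome, had 74 UMIs in rapamycin and 37 in vehicle nuclei and a ratio of 0.94 (0.36 to 1.55). Smdt1, an essential subunit of the mitochondrial calcium uniporter, was at 0.79 (0.40 to 1.19). Nnat, an imprinted membrane protein of endocrine cells and neurons, stood at 163 CPM with rapamycin against 113 with vehicle, a log2 ratio of 0.52 (0.40 to 0.64). Hcfc1r1 was at 0.93 (0.45 to 1.43) and Sft2d3 at 0.67 (0.38 to 0.96). In glutamatergic nuclei, Smdt1 at 0.48 and Sft2d3 at 0.42 were counted as higher too, whereas Trmt10c at 0.14 (-0.27 to 0.54), Mrps34 at 0.31 (-0.24 to 0.86), Hcfc1r1 at 0.29 (-0.11 to 0.70) and Nnat at 0.13 (0.05 to 0.20) were not. The nuclei of neither class gave 0.17 (-0.13 to 0.48) for Trmt10c, 0.10 (-0.28 to 0.48) for Mrps34, 0.16 (-0.13 to 0.46) for Hcfc1r1, 0.21 (0.15 to 0.27) for Nnat, 0.40 (0.11 to 0.69) for Smdt1 and 0.41 (0.22 to 0.61) for Sft2d3.

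**Figure D1:**
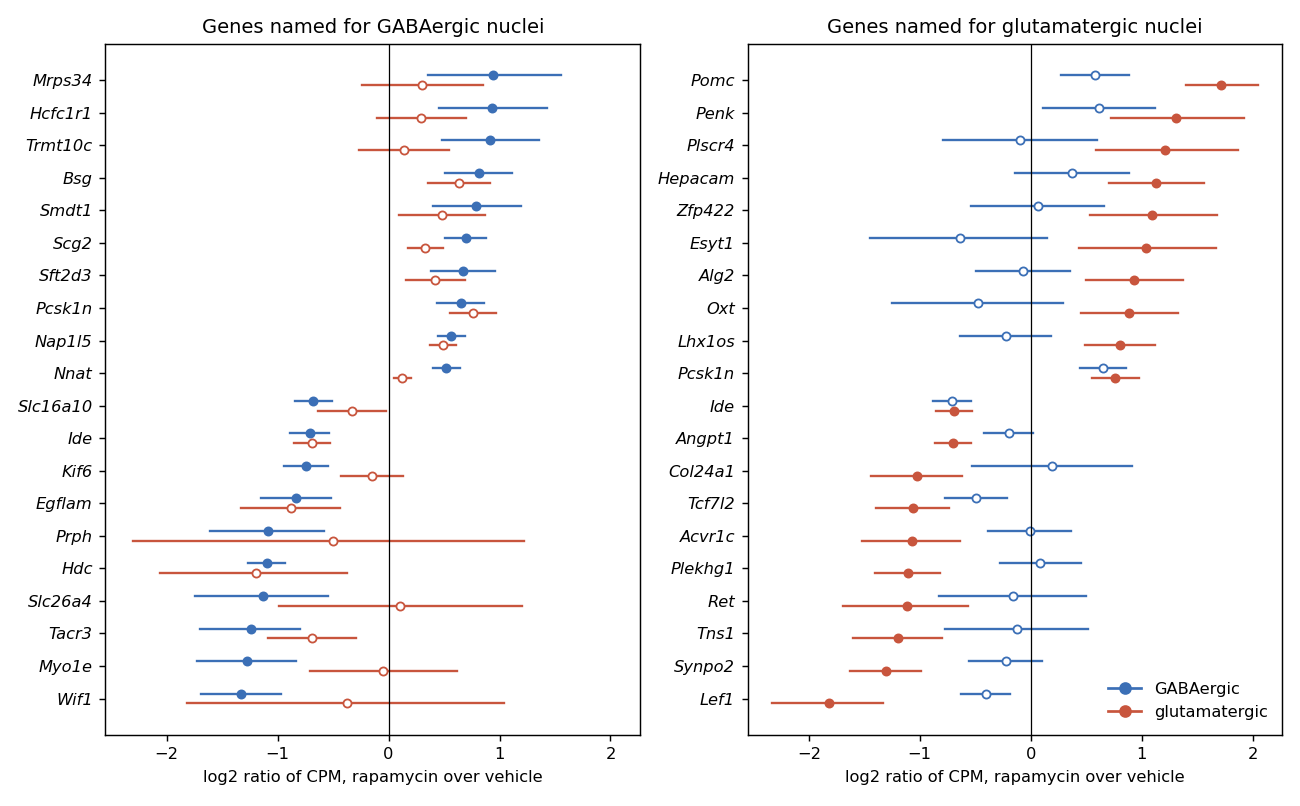
Log2 ratio of CPM, rapamycin over vehicle, of the genes named for GABAergic nuclei (left) and for glutamatergic nuclei (right) of DIO mice, with 95% counting intervals. Filled points are the class that named the gene and open points the other class. Pcsk1n and Ide lie on the same side of 0 with nearly the same ratio in both classes, while Lef1 and Pomc differ between them.

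Ide was the 1 gene named as lower in both classes. Ide (ENSMUSG00000056999, chromosome 19, 37268743 to 37334544), the protease that degrades insulin and other small peptides, stood at 53.4 CPM with rapamycin against 87.4 with vehicle, a log2 ratio of -0.71 (-0.88 to -0.54), in GABAergic nuclei and at 52.6 CPM with rapamycin against 84.9 with vehicle, a log2 ratio of -0.69 (-0.85 to -0.53), in glutamatergic nuclei. The classes did not differ beyond counting error, with a difference of -0.02 (-0.25 to 0.21). It was lower in 9 of 9 GABAergic clusters, from -1.1 to -0.23, and in 10 of 10 glutamatergic clusters, from -1.48 to -0.17. The nuclei of neither class gave -0.65 (-0.78 to -0.52). In chow mice the ratios were -0.16 (-0.36 to 0.04) and 0.04 (-0.15 to 0.22), and in OB mice -0.00023 (-0.31 to 0.32) and 0.06 (-0.21 to 0.33). Chow levels were 50.8 CPM with rapamycin and 56.6 with vehicle in GABAergic, and 51.9 and 50.5 in glutamatergic nuclei. OB levels were 68.2 and 68.2, and 74.6 and 71.7. The DIO vehicle nuclei thus had the highest levels, but each pool is 1 capture, and which treatment departs was not tested.

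The measured neighbours of Ide on chromosome 19 were then read in order, 4 on each side, a choice made after the value of Ide had been seen. Btaf1 (chromosome 19, 36926079 to 37014057), which removes TATA-binding protein from DNA, was lower at -0.45 (-0.58 to -0.31) in GABAergic, -0.52 (-0.65 to -0.40) in glutamatergic and -0.55 (-0.65 to -0.46) in the nuclei of neither class. In chow mice Btaf1 lay at -0.02 (-0.15 to 0.11) in glutamatergic nuclei and in OB mice at -0.09 (-0.31 to 0.13). Cpeb3 and A330032B11Rik, which lie between Btaf1 and Ide, gave -0.14 (-0.22 to -0.06) and -0.02 (-0.26 to 0.23) in GABAergic nuclei, and -0.07 (-0.14 to 0.00045) and 0.04 (-0.20 to 0.27) in glutamatergic nuclei. Exoc6, the next measured gene beyond Ide, gave 0.02 (-0.17 to 0.21) and -0.16 (-0.36 to 0.03), and -0.27 (-0.41 to -0.12) in the nuclei of neither class. Lgi1, further on, was at -0.08 (-0.25 to 0.10), -0.21 (-0.36 to -0.06) and -0.24 (-0.36 to -0.12) in the same order, while Fra10ac1 between them was at 0.11 (-0.10 to 0.32), 0.31 (0.11 to 0.52) and 0.11 (-0.05 to 0.27). Plce1, the last one read, was at -0.20 (-0.58 to 0.18), -0.31 (-0.64 to 0.03) and -0.22 (-0.40 to -0.04). Fgfbp3, next to Btaf1, had 45 UMIs with rapamycin and 78 with vehicle in GABAergic nuclei, a ratio of -0.85 (-1.41 to -0.30), but -0.03 (-0.57 to 0.50) in glutamatergic nuclei. Counted as lower in all 3 sets of nuclei were Ide and Btaf1, and neither of the genes between them was. DNA of the mice was not measured, so whether their genomes differ here was not tested.

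**Figure D2:**
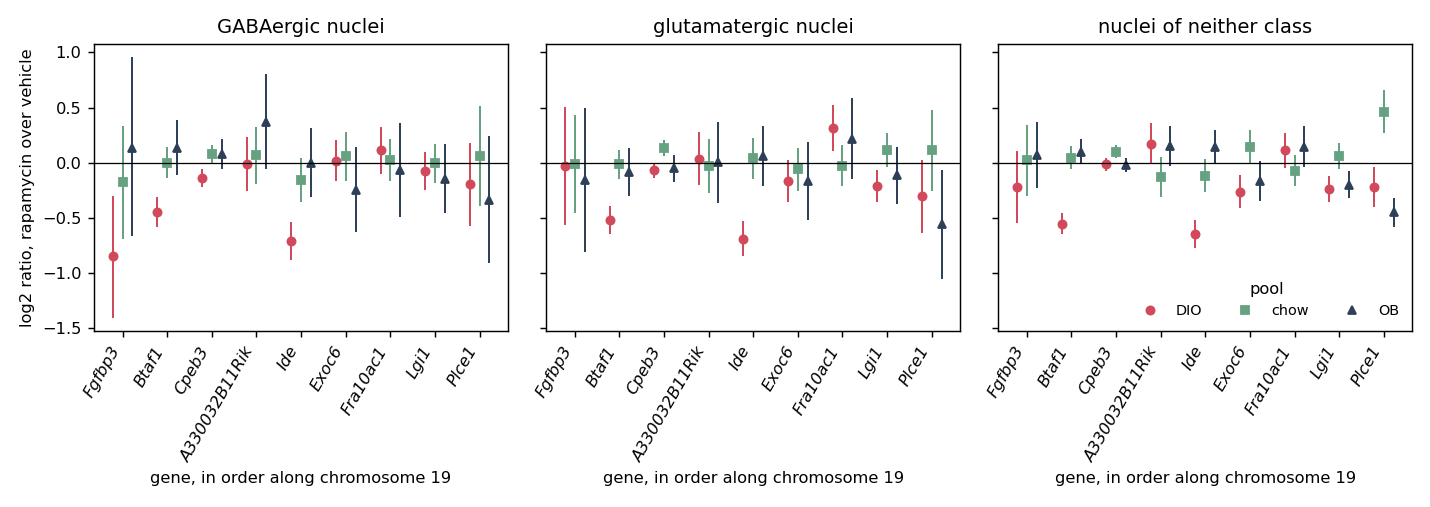
Log2 ratio, rapamycin over vehicle, of Ide and its 4 nearest measured neighbours on each side in GABAergic nuclei, glutamatergic nuclei and nuclei of neither class, with 95% counting intervals (circles DIO, squares chow, triangles OB). In DIO, Btaf1 and Ide lie below 0 in all 3 panels, while the genes between them lie near 0, and in chow and OB Btaf1 and Ide do not stand apart.

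Taco1 (chromosome 11, 106066057 to 106074035), which activates translation of a mitochondrially encoded subunit of cytochrome oxidase, lay outside the naming rule and was singled out after its values were seen. It was at -0.75 (-1.02 to -0.49) in GABAergic and -0.73 (-0.98 to -0.48) in glutamatergic nuclei, was lower in 8 of 9 and 9 of 10 clusters, and gave -0.70 (-0.89 to -0.51) in the nuclei of neither class. Its nearest measured neighbours did not share this: Dcaf7 was at 0.24 (0.08 to 0.40) and 0.17 (0.02 to 0.32), and Map3k3 at 0.03 (-0.11 to 0.18) and -0.07 (-0.20 to 0.07). In chow mice, Taco1 gave -0.26 (-0.63 to 0.10) and -0.18 (-0.50 to 0.14). In OB mice it gave -0.02 (-0.65 to 0.62) and -0.46 (-1.02 to 0.09), and -0.33 (-0.61 to -0.05) in the nuclei of neither class. DIO levels of Taco1 were 22.9 CPM with rapamycin and 38.6 with vehicle in GABAergic, and 22.7 and 37.6 in glutamatergic nuclei. Chow levels were 15.4 and 18.4, and 16.7 and 18.9. OB levels were 17.4 and 17.6, and 15.4 and 21.2.

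Of the other 9 genes named as lower in GABAergic nuclei, 6 are among the 10 that lead a small cluster of histaminergic-like nuclei. Hdc (ENSMUSG00000027360, chromosome 2, 126593659 to 126624025), the enzyme that makes histamine, stood at 50.7 CPM with rapamycin against 109 with vehicle, a log2 ratio of -1.1 (-1.27 to -0.93). Wif1, a secreted inhibitor of Wnt ligands, was at -1.33 (-1.69 to -0.97), the intermediate filament gene Prph at -1.09 (-1.61 to -0.58) and the monoamine-degrading enzyme Maob, named for its class difference, at -0.73 (-1.07 to -0.40). Hdc, Wif1, Slc16a10, Prph, Myo1e and Kif6, and Maob with them, lead GABAergic cluster 15, called histaminergic-like from 5 of its 5 markers. This cluster held 31 rapamycin nuclei and 46 vehicle nuclei, or 2.32% (1.58 to 3.28) and 4.06% (2.98 to 5.37). With every cluster at equal weight in both treatments, the ratios were -0.22 for Hdc, -0.49 for Wif1, -0.25 for Prph, -0.51 for Myo1e, -0.18 for Kif6, -0.18 for Maob and -0.03 for Slc16a10. Slc26a4, an anion exchanger, at -1.13 (-1.75 to -0.54), and Egflam, an extracellular matrix gene, at -0.83 (-1.15 to -0.52), came to -0.39 and -0.27.

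Tacr3 (ENSMUSG00000028172, chromosome 3, 134829007 to 134934581), the receptor for neurokinin B, was lower in both classes. It stood at 7.12 CPM with rapamycin against 16.9 with vehicle, a log2 ratio of -1.24 (-1.70 to -0.80), in GABAergic nuclei and at 9.24 CPM with rapamycin against 14.9 with vehicle, a log2 ratio of -0.69 (-1.08 to -0.30), in glutamatergic nuclei. Equal cluster weights gave -0.71 and -0.23, and the nuclei of neither class -0.80 (-1.12 to -0.49). At least 1 Tacr3 UMI was seen in 40 rapamycin and 71 vehicle nuclei among the GABAergic, and in 52 and 78 among the glutamatergic. The background of free RNA was not read for this gene, so these are not counts of nuclei that express it. In chow mice Tacr3 was counted as lower in GABAergic nuclei too, against 2.48% of all genes.

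On the higher side of glutamatergic nuclei stood Pomc (ENSMUSG00000020660, chromosome 12, 3954945 to 3960643), from which neurons cut the appetite-restraining melanocortin alpha-MSH, and Penk, the precursor of enkephalins. Pomc had 359 UMIs in rapamycin and 103 in vehicle nuclei, a ratio of 1.72 (1.4 to 2.05). A Pomc UMI was seen in 7.99% (6.66 to 9.48) of rapamycin and 6.14% (4.87 to 7.63) of vehicle nuclei. DIO nuclei with oligodendrocyte markers, which should lack Pomc, held a UMI in 10.3% (2.87 to 24.2) of 39 rapamycin and 5% (0.127 to 24.9) of 20 vehicle nuclei at median depths of 2004 and 1531 UMIs, so these shares are read as background and not as expression. Nuclei with at least 5 Pomc UMIs numbered 4 with rapamycin and 3 with vehicle, and held 234 of the 359 and 17 of the 103 UMIs. Of the rapamycin UMIs, 133 came from a single nucleus, and without it the ratio was 1.05. In glutamatergic cluster 8, which is led by Isl1, Pomc and Asb4 and held 81 rapamycin and 62 vehicle nuclei, Pomc had 120 UMIs against 33, a ratio of 1.42 (0.86 to 2.02). Cluster 5, led by Myo5b, Postn and Drd3, held 122 rapamycin and 58 vehicle nuclei, with 140 Pomc UMIs against 0. The single nucleus with 133 UMIs lies in cluster 5, since every other cluster held fewer in sum, so it holds 133 of those 140. The contrast in cluster 5 thus rests mostly on 1 nucleus. How few nuclei hold the UMIs of cluster 8 was not read. The Pomc-like GABAergic cluster 27 held 11 rapamycin and 17 vehicle nuclei. In GABAergic nuclei Pomc gave 0.58 (0.28 to 0.89), and 0.11 without the nucleus that held 65 of its UMIs. In the nuclei of neither class it had 1559 and 390 UMIs, a ratio of 1.72 (1.56 to 1.88). Thinning to 2000 UMIs per nucleus turned the glutamatergic ratio to -0.16. Pituitary cells also make Pomc, and pituitary markers (Pomc not among them) summed to 92.1 CPM with rapamycin against 79.9 with vehicle in glutamatergic nuclei, a ratio of 0.20 (0.06 to 0.35), whose part in the result was not tested.

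Penk (ENSMUSG00000045573, chromosome 4, 4133536 to 4138815) had 89 UMIs in rapamycin and 34 in vehicle glutamatergic nuclei, a ratio of 1.31 (0.72 to 1.92), and 89 UMIs in rapamycin and 56 in vehicle GABAergic nuclei, a ratio of 0.61 (0.11 to 1.12). Oxt, which encodes oxytocin, was at 0.89 (0.45 to 1.33) in glutamatergic nuclei, but at -0.73 when 2 Slc17a6 UMIs were required and at -0.54 after thinning. Hepacam, a cell adhesion gene also expressed by glia, was at 1.13 (0.71 to 1.56), and Alg2, a mannosyltransferase of protein glycosylation, at 0.93 (0.50 to 1.37). Esyt1, which tethers the endoplasmic reticulum to the plasma membrane, was at 1.04 (0.44 to 1.67), the phospholipid scramblase family member Plscr4 at 1.21 (0.59 to 1.86) and the zinc finger gene Zfp422 at 1.09 (0.53 to 1.68). Lhx1os, a transcript antisense to Lhx1, was at 0.80 (0.49 to 1.12), and equal cluster weights gave 0.27. Of these 6 genes, none was counted as higher in GABAergic nuclei, where their ratios ran from -0.64 to 0.37, on under 100 UMIs for Esyt1, Plscr4 and Zfp422. In the nuclei of neither class, Plscr4 lay on the other side at -0.52 (-0.86 to -0.19), Esyt1 was at -0.26 (-0.72 to 0.20), Alg2 at 0.51 (0.21 to 0.80), Hepacam at 0.17 (-0.04 to 0.39), Zfp422 at 0.36 (-0.03 to 0.76) and Lhx1os at 0.18 (-0.10 to 0.46). Penk was at 0.47 (0.02 to 0.92) and Oxt at 0.89 (0.55 to 1.25) there.

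Several genes named as lower in glutamatergic nuclei lead small clusters that held unequal numbers of nuclei. Lef1 and Tcf7l2, transcription factors of Wnt signalling that are active in thalamic neurons, were at -1.82 (-2.33 to -1.33) and -1.06 (-1.4 to -0.74), Synpo2 at -1.31 (-1.63 to -0.99) and Plekhg1 at -1.11 (-1.4 to -0.82). All 4 are among the leading genes of glutamatergic cluster 28, a thalamic-like group of 0 rapamycin and 10 vehicle nuclei. Equal cluster weights, which left this cluster out, gave -0.06, -0.40, -0.42 and -0.18. Tns1 at -1.20 (-1.60 to -0.80) and Angpt1 at -0.70 (-0.86 to -0.54) are among the leading genes of cluster 15, a paraventricular-like group led by Avp that held 27 rapamycin and 58 vehicle nuclei, and came to -0.62 and -0.04. Acvr1c, an activin and nodal receptor, at -1.07 (-1.52 to -0.63), Ret, the receptor subunit for glial-derived neurotrophic factors, at -1.12 (-1.69 to -0.56) and Col24a1, a collagen, at -1.02 (-1.44 to -0.62) came to -0.89, -1.0 and -0.76. Col24a1 leads cluster 20, a Kiss1/Tac2-like group of 19 rapamycin and 27 vehicle nuclei, which Tacr3 marks as well. The nuclei of neither class gave -0.43 (-0.75 to -0.12) for Acvr1c, -1.52 (-1.96 to -1.1) for Ret and -0.37 (-0.73 to -0.01) for Col24a1.

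The classes were next set against each other by the difference of their log2 ratios, GABAergic minus glutamatergic. Of 11091 genes, 273 (2.46%) stood higher and 312 (2.81%) lower by 0.3 or more with an interval that left out 0. The 5 named on the higher side were Lef1 at 1.41 (0.89 to 1.94), Synpo2 at 1.08 (0.64 to 1.52), Plekhg1 at 1.19 (0.74 to 1.64), Fhl2 at 1.42 (0.61 to 2.23) and Spon1 at 0.74 (0.51 to 0.98). For Spon1, a secreted matrix protein of neurons, the ratio was 0.52 (0.35 to 0.69) in GABAergic and -0.22 (-0.39 to -0.06) in glutamatergic nuclei, and equal cluster weights gave 0.44 and -0.07. For Fhl2, a LIM-domain cofactor, the ratios were 0.92 (0.32 to 1.55) and -0.50 (-1.09 to 0.09). On the lower side stood Pomc at -1.14 (-1.57 to -0.71), Maob at -1.39 (-2.02 to -0.76), Ccdc60 at -1.33 (-2.00 to -0.66), Tmem204 at -1.36 (-2.14 to -0.59) and Ttn at -1.04 (-1.52 to -0.57). Ttn is the first of the leading genes of glutamatergic cluster 18, which held 44 rapamycin and 18 vehicle nuclei. Ccdc60 was at -0.99 (-1.49 to -0.49) in GABAergic and 0.34 (-0.14 to 0.83) in glutamatergic nuclei, and Tmem204 at -0.48 (-1.03 to 0.05) and 0.88 (0.29 to 1.49).

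Immediate-early genes, which neurons transcribe within minutes of firing, mostly lay below 0 in glutamatergic nuclei. There 3 of them were counted as lower, while none was in GABAergic nuclei. Of these 3, Npas4 and Junb held under 100 UMIs in GABAergic nuclei and could not be counted there, so the calls of the classes are not alike. Fos, Egr1 and several others rest on few UMIs. Fos (ENSMUSG00000021250, chromosome 12, 85473890 to 85477274), a subunit of the AP-1 transcription factor, had 10 UMIs in rapamycin and 64 in vehicle glutamatergic nuclei, which is 1.0 CPM with rapamycin against 6.80 with vehicle and a ratio of -2.76 (-3.89 to -1.79). It had 20 UMIs in rapamycin and 33 in vehicle GABAergic nuclei, a ratio of -0.78 (-1.66 to 0.07). The difference between the classes was 1.98 (0.73 to 3.23). A Fos UMI was seen in 0.671% (0.322 to 1.23) of rapamycin and 3.07% (2.18 to 4.19) of vehicle glutamatergic nuclei, and in 1.35% (0.800 to 2.12) and 2.73% (1.86 to 3.86) of GABAergic nuclei. Among DIO nuclei with oligodendrocyte markers, which serve as a guide to free RNA, Fos was seen in 0 of 39 rapamycin and 0 of 20 vehicle nuclei, which allows shares of up to 7.69% and 15%, at median depths of 2004 and 1531 UMIs. After thinning to 2000 UMIs per nucleus, Fos was left in 0 of 738 rapamycin and 5 of 565 vehicle glutamatergic nuclei, too few to read a change. Equal weights for 5 bins of depth gave Fos -2.71 in glutamatergic and -0.81 in GABAergic nuclei.

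Other members lay below 0 as Fos did. Egr1, a zinc finger factor, gave -1.30 (-2.46 to -0.23) in GABAergic and -1.4 (-2.28 to -0.59) in glutamatergic nuclei. Npas4, a factor induced by calcium entry, gave -0.54 (-1.23 to 0.14) and -0.97 (-1.52 to -0.43), and was seen in 2.75% (1.98 to 3.71) of rapamycin against 5.74% (4.51 to 7.19) of vehicle glutamatergic nuclei. Junb gave -0.53 (-1.24 to 0.17) and -0.68 (-1.25 to -0.11), and the nuclear receptors Nr4a1, Nr4a2 and Nr4a3 gave -0.58 (-1.78 to 0.57), -0.42 (-0.83 to -0.01) and -1.16 (-2.09 to -0.29) in glutamatergic nuclei. Jun did not follow, at 0.06 (-0.53 to 0.65) and 0.10 (-0.51 to 0.71), nor did Ier5, at 0.53 (-0.88 to 2.02) and 0.92 (-0.31 to 2.26). Fosb was listed at 0 UMIs with rapamycin and 5 with vehicle in glutamatergic nuclei. In the nuclei of neither class, Fos was at -2.22 (-3.01 to -1.50), Egr1 at -2.30 (-3.26 to -1.44), Npas4 at -1.08 (-1.54 to -0.62) and Junb at -0.68 (-1.13 to -0.23).

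Of the 28 immediate-early genes listed, 7 were measured in GABAergic and 10 in glutamatergic nuclei. In GABAergic nuclei 4 of 7 lay below 0, none was counted as higher or lower, and the median was -0.13. In glutamatergic nuclei 9 of 10 lay below 0, 3 were counted as lower (Nr4a2, Junb and Npas4, against 2.4% of all genes), and the median was -0.29. Fos, Egr1 and Nr4a3 stayed under the 100 UMIs needed and are not in these counts. Npas4 and Junb stayed under it in GABAergic nuclei, with 33 and 31 UMIs with rapamycin and 46 and 43 with vehicle. The summed level of all 28 was 146 CPM with rapamycin against 169 with vehicle in GABAergic nuclei, a ratio of -0.21 (-0.32 to -0.10), and 180.4 against 220.0 in glutamatergic nuclei, a ratio of -0.29 (-0.38 to -0.19). These sums rest mostly on other members: Fos, Npas4 and Junb held 64, 85 and 68 of the 2070 vehicle UMIs in glutamatergic nuclei. The summed level was lower in 6 of 9 GABAergic and 9 of 10 glutamatergic large clusters. In chow mice the summed ratios were 0.03 (-0.08 to 0.13) and -0.01 (-0.10 to 0.07), and in OB mice 0.35 (0.15 to 0.54) and -0.0029 (-0.17 to 0.16). Among single members, Junb was counted as lower in chow glutamatergic nuclei too, against 2.59% of all genes. Fos was counted as higher in chow GABAergic nuclei, against 1.51% of all genes.

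**Figure D3:**
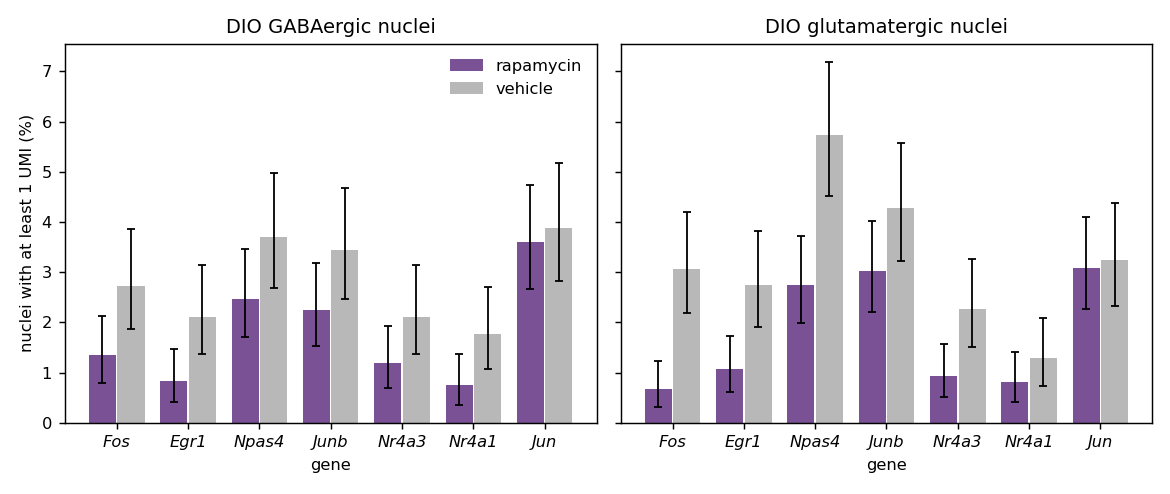
Share of DIO nuclei with at least 1 UMI of 7 immediate-early genes in GABAergic (left) and glutamatergic (right) nuclei, rapamycin in purple and vehicle in grey, with exact 95% Clopper-Pearson intervals. The bars of Fos are 0.671% against 3.07% in glutamatergic nuclei and 1.35% against 2.73% in GABAergic nuclei, and the intervals of Jun overlap in both.

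Some promoters are shown because Fos and several other immediate-early genes are known to be induced through CREB, which binds the cyclic AMP response element. The 250 bases before the annotated start, from RefSeq (GRCm38.p6), are printed 5′ to 3′ for the 3 genes counted as lower in glutamatergic nuclei and for Fos. Capitals mark TGACG, the first bases of that element, or its reverse complement CGTCA. Fos lies at chr12:85473640-85473889, plus strand, Npas4 at chr19:4989972-4990221, minus strand, Nr4a2 at chr2:57124004-57124253, minus strand and Junb at chr8:84978749-84978998, minus strand.
Fos: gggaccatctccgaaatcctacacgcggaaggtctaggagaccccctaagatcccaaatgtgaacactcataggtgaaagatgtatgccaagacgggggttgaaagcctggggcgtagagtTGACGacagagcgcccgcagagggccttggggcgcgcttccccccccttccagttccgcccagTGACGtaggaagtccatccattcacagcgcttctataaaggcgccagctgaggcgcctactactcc
Npas4: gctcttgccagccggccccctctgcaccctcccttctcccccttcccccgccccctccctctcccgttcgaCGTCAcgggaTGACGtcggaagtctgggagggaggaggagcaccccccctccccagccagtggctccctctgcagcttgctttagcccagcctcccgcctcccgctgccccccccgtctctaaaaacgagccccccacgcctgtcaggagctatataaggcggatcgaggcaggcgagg
Nr4a2: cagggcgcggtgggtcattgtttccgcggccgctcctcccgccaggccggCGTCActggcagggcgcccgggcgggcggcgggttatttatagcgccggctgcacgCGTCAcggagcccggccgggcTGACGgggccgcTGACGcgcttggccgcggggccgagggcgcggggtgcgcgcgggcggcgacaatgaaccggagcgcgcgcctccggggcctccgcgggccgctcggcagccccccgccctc
Junb: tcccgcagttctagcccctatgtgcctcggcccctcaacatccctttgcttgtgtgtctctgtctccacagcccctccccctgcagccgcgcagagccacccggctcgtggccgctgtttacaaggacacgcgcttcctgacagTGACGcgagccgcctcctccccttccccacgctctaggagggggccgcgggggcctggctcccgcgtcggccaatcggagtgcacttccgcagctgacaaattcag
The motif stood 2 times in the window of Fos, 2 times in that of Npas4, 4 times in that of Nr4a2 and 1 time in that of Junb. Promoters of 21 of the 28 listed genes were matched by symbol, with 33 annotated starts, and 57.6% of those windows held at least 1 match on either strand. Of all 32851 windows, 17.8% did. Since several of these genes are known to be induced through CREB, the larger share was foreseeable and is no result about rapamycin. A gene with several starts counts more than once. A match is a description of the letters and does not show binding.

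Cytosolic ribosomal protein genes, whose messages mTORC1 controls at the level of translation, were higher with rapamycin in both classes by small amounts. In the list, 65 of 76 measured members lay above 0 in GABAergic nuclei and 66 of 76 in glutamatergic nuclei. Counted as higher were 12 and 14 members, and none as lower, against 5.34% and 6.14% of all genes. The median was 0.19 in GABAergic and 0.17 in glutamatergic nuclei, where all genes had 0.02 and 0.03. Their summed level was 1541 CPM with rapamycin against 1348 with vehicle in GABAergic nuclei, a ratio of 0.19 (0.16 to 0.23). In glutamatergic nuclei it was 1498 CPM against 1317, a ratio of 0.19 (0.15 to 0.22). Rpl22, Rpl21 and Rps27a were counted as higher in both classes. Rpl22 stood at 24.7 CPM with rapamycin against 17.1 with vehicle, a log2 ratio of 0.53 (0.24 to 0.83), in glutamatergic nuclei, and Rpl21 at 42 CPM with rapamycin against 31.2 with vehicle, a log2 ratio of 0.43 (0.20 to 0.67), in GABAergic nuclei. Rps6, the ribosomal protein phosphorylated downstream of mTORC1, gave 0.14 (-0.27 to 0.54) and 0.31 (-0.10 to 0.72). The summed level was higher in 9 of 9 GABAergic and 9 of 10 glutamatergic large clusters. The nuclei of neither class had 65 of 76 members above 0 and a median of 0.16. Translation initiation and elongation factors lay closer to the rest, with medians of 0.06 and 0.06.

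Nuclear genes of oxidative phosphorylation followed the same pattern. In the list, 60 of 71 measured members lay above 0 in GABAergic nuclei and 58 of 71 in glutamatergic nuclei, of which 7 and 13 were counted as higher and none as lower, against 5.34% and 6.14% of all genes. The medians were 0.17 and 0.16, and the summed ratios 0.16 (0.13 to 0.19) and 0.15 (0.12 to 0.17). Ndufa6, a subunit of complex I, stood at 46.1 CPM with rapamycin against 34.2 with vehicle, a log2 ratio of 0.43 (0.21 to 0.66), in GABAergic nuclei and at 46.4 CPM with rapamycin against 34.0 with vehicle, a log2 ratio of 0.45 (0.24 to 0.66), in glutamatergic nuclei. Ndufc2 and Ndufs7, also of complex I, were counted as higher in both classes too, and Ndufa11 in glutamatergic nuclei, at 0.57 (0.17 to 0.98) against -0.08 (-0.49 to 0.32) in GABAergic nuclei. The summed level was higher in 9 of 9 GABAergic and 10 of 10 glutamatergic large clusters. In the nuclei of neither class, 70 of 75 members lay above 0 with a median of 0.19.

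The genes encoded in the mitochondrial genome lay on the other side. In glutamatergic nuclei 7 of 7 measured members lay below 0 and 5 were counted as lower (mt-Nd2, mt-Co1, mt-Co2, mt-Atp6 and mt-Co3, against 2.4% of all genes), with a median of -0.44. In GABAergic nuclei 3 of 5 lay below 0, and mt-Co2 was counted as lower, against 2.25% of all genes. Within the glutamatergic class, mt-Co3, mt-Cytb and mt-Nd4 are among the leading genes of cluster 27, which has astrocyte markers and held 7 rapamycin and 7 vehicle nuclei. mt-Co2, a subunit of cytochrome oxidase, had 51 UMIs in rapamycin and 96 in vehicle glutamatergic nuclei, a ratio of -0.99 (-1.51 to -0.49), and -0.54 (-1.06 to -0.04) in GABAergic nuclei. Sorted nuclei hold few such transcripts: they made up 0.00615% of the UMIs with rapamycin against 0.00745% with vehicle in GABAergic nuclei and 0.00648% against 0.00892% in glutamatergic nuclei. The summed ratios of the list in DIO were -0.28 (-0.45 to -0.11) in GABAergic and -0.46 (-0.61 to -0.31) in glutamatergic nuclei. In chow mice they were 0.20 (0.02 to 0.38) and -0.26 (-0.42 to -0.10), and in OB mice -0.22 (-0.43 to -0.01) and -0.04 (-0.22 to 0.13).

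**Figure D4:**
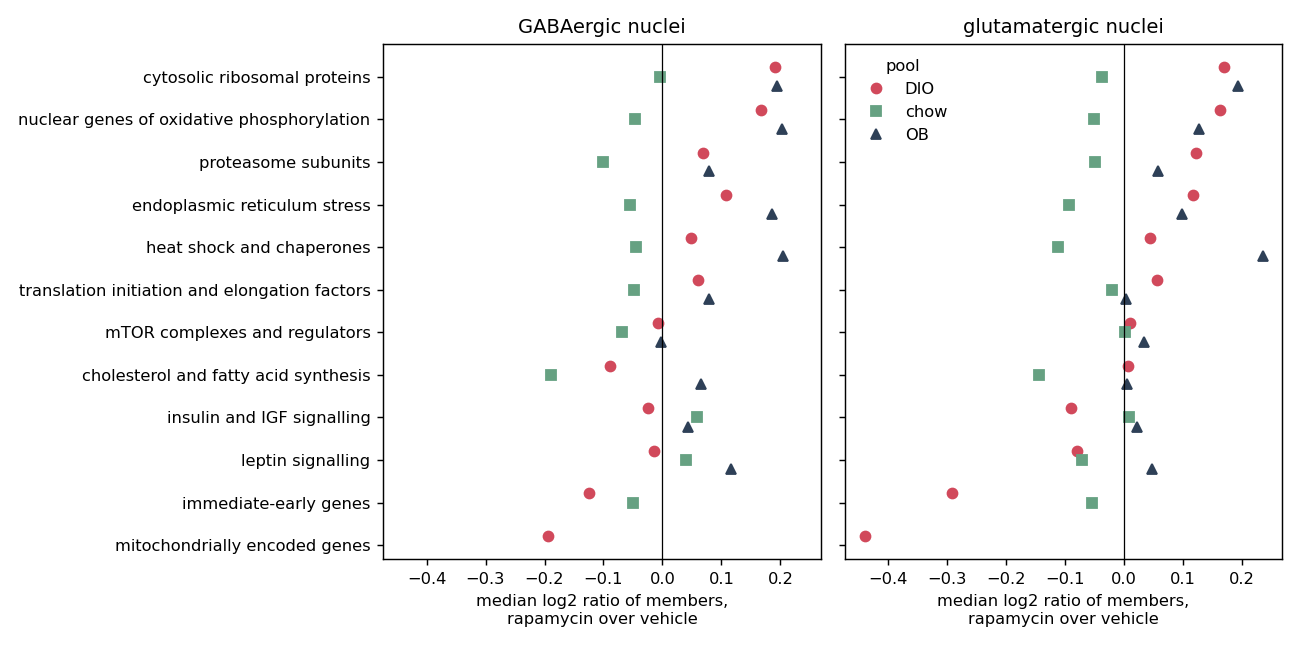
Median log2 ratio, rapamycin over vehicle, of the measured members of 12 gene lists in GABAergic and glutamatergic nuclei of DIO mice, beside the same in the chow and OB pools (circles DIO, squares chow, triangles OB, with a line at 0). A pool with under 5 measured members has no point. In DIO, ribosomal protein genes lie at 0.19 in GABAergic and 0.17 in glutamatergic nuclei, and immediate-early and mitochondrially encoded genes lie below 0 in both.

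Genes of lipid synthesis were called in both directions. In the list of cholesterol and fatty acid synthesis, 7 of 29 measured members lay above 0 in GABAergic nuclei and 16 of 30 in glutamatergic nuclei, with medians of -0.09 and 0.01. Scd2, which desaturates fatty acids, was counted as higher in both classes, at 28.8 CPM with rapamycin against 22.5 with vehicle, a log2 ratio of 0.36 (0.08 to 0.64), in GABAergic nuclei and 35.1 CPM with rapamycin against 24.4 with vehicle, a log2 ratio of 0.52 (0.28 to 0.77), in glutamatergic nuclei. Idi1 at -0.55 (-0.99 to -0.13), an enzyme of isoprenoid synthesis, and Stard4 at -0.65 (-1.24 to -0.07), a sterol carrier, were counted as lower in GABAergic nuclei, where 5.34% of all genes were counted as higher and 2.25% as lower. Fads2, another desaturase, was counted as higher in glutamatergic nuclei, at 0.71 (0.30 to 1.13), against 6.14% of all genes. Hmgcs1, which feeds the cholesterol pathway, gave -0.30 (-0.55 to -0.05) and -0.11 (-0.33 to 0.11). The list had medians of -0.19 in GABAergic and -0.14 in glutamatergic nuclei of chow mice, and of 0.06 and 0.01 in OB mice. In chow mice Idi1 was counted as lower in both classes and Stard4 in glutamatergic nuclei, against 2.48% of GABAergic and 2.59% of glutamatergic genes.

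Among mTOR complexes and regulators, 19 of 40 measured members lay above 0 in GABAergic nuclei and 22 of 40 in glutamatergic nuclei, with medians of -0.01 and 0.01 beside 0.02 and 0.03 for all genes. Mtor itself, the kinase, gave -0.13 (-0.30 to 0.04) and -0.03 (-0.18 to 0.13). Lamtor4, a subunit of the lysosomal scaffold that docks mTORC1, was counted as higher in both classes, at 0.31 (0.10 to 0.51) and 0.32 (0.13 to 0.51). Rraga, a Rag GTPase of the same docking step, was counted as higher in glutamatergic nuclei, at 0.77 (0.33 to 1.22), and Akt1s1, an inhibitory subunit of mTORC1, in GABAergic nuclei, at 0.57 (0.04 to 1.1). Tbc1d7, a subunit of the TSC complex, was counted as higher there at 0.37 (0.02 to 0.73), and Wdr59, a subunit of the GATOR complex, as lower at -0.30 (-0.53 to -0.08). The list thus had 3 higher and 1 lower call in GABAergic nuclei, and 2 higher and none lower in glutamatergic nuclei, against 5.34%, 2.25%, 6.14% and 2.4% of all genes. Targets of the stress factor ATF4 had medians of 0.01 and 0.06, and genes of autophagy and lysosomes 0.08 and 0.04. Genes of endoplasmic reticulum stress had 0.11 and 0.12, and thinning turned the GABAergic median to -0.14. Hspa5, a chaperone, at 0.43 (0.17 to 0.70), Hyou1 and Pdia6 were counted as higher in GABAergic nuclei, and Edem1, which directs misfolded proteins to degradation, as lower in glutamatergic nuclei, at -0.48 (-0.91 to -0.06). Each class had 20 members of this list measured, and the shares of all genes so counted were 5.34% and 2.4%. Proteasome subunits lay above 0 for 23 and 25 of 31 members, with medians of 0.07 and 0.12.

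Of leptin and insulin signalling genes, more lay below 0 than above. Lepr, the leptin receptor, stood at 35.3 CPM with rapamycin against 34.6 with vehicle, a log2 ratio of 0.03 (-0.21 to 0.27), in GABAergic nuclei and at 26.3 CPM with rapamycin against 27.4 with vehicle, a log2 ratio of -0.06 (-0.31 to 0.19), in glutamatergic nuclei. With equal cluster weights the ratios were 0.30 and 0.03, and in the nuclei of neither class -0.53 (-0.71 to -0.35). In the list of leptin signalling, 6 of 15 measured members lay above 0 in GABAergic nuclei and 4 of 14 in glutamatergic nuclei. Irs2, an adaptor of the insulin and leptin receptors, was counted as lower in glutamatergic nuclei, at -0.43 (-0.79 to -0.07), but thinning turned this to 0.29. It gave -0.35 (-0.73 to 0.01) in GABAergic nuclei. Pik3r1, a regulatory subunit of PI3 kinase, was counted as lower in GABAergic nuclei, at -0.36 (-0.58 to -0.13). In the list of insulin and IGF signalling, 8 of 23 measured members lay above 0 in GABAergic nuclei and 8 of 23 in glutamatergic nuclei, and the growth factor Igf1 was counted as lower in both, at -1.02 (-1.59 to -0.48) and -0.62 (-1.01 to -0.24). With Irs2 and Pik3r2, another PI3 kinase subunit, at -0.45 (-0.90 to -0.01), 3 members of that list were counted as lower in glutamatergic nuclei and none as higher, where 2.4% of all genes were counted as lower. In GABAergic nuclei Igf1 and Pik3r1 were counted as lower, against 2.25% of all genes, and Igfbp5, which binds IGFs, as higher, at 0.87 (0.30 to 1.46), against 5.34%. Igf1 is among the leading genes of glutamatergic cluster 7, of 56 rapamycin and 88 vehicle nuclei, and cluster 10, of 53 and 58. It is also among those of the Pmch-like GABAergic cluster 29, of 9 and 15. The part of these cluster sizes in its ratios was not tested. In chow mice Igf1 was counted as lower in both classes too.

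Neuropeptide precursors gave more calls in glutamatergic than in GABAergic nuclei, a difference in counts that was not tested. Of 13 measured in glutamatergic nuclei, 5 were counted as higher (Oxt, Avp, Penk, Tac1 and Pomc) and Pdyn as lower, against 6.14% and 2.4% of all genes. As given above, Pomc and Oxt turned below 0 under other settings. Avp, the precursor of vasopressin, was at 0.36 (0.10 to 0.63), Tac1, which encodes substance P, at 0.43 (0.11 to 0.75) and Pdyn, which encodes dynorphins, at -0.67 (-1.25 to -0.09). Of 10 measured in GABAergic nuclei, Penk and Pomc were counted as higher and Cartpt as lower, at -0.32 (-0.60 to -0.04), against 5.34% and 2.25% of all genes. Equal cluster weights turned Cartpt to 0.02, and Pomc came to 0.11 without its top nucleus. Agrp, which drives feeding, gave 0.24 (0.06 to 0.42) in GABAergic nuclei. In chow mice Oxt was counted as higher in glutamatergic and Penk in GABAergic nuclei too, against 1.22% and 1.51% of all genes. In OB mice Oxt was counted as higher in glutamatergic nuclei, against 4.44% of all genes. Pomc was counted as lower in both classes of OB nuclei, against 2.72% of GABAergic and 2.65% of glutamatergic genes.

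Of granins and processing enzymes, 15 were measured in each class. Scg2 and Pcsk1n were counted as higher in both classes, and Chgb, a granin of dense-core vesicles, in glutamatergic nuclei, at 0.52 (0.25 to 0.79). Pcsk1, the convertase that cleaves Pomc and other prohormones, lay on the other side, at -0.44 (-0.72 to -0.17) in GABAergic nuclei, where it was counted as lower, and at -0.30 (-0.47 to -0.12) in glutamatergic nuclei. Thinning turned the GABAergic ratio to 0.50. Of all genes, 5.34% were counted as higher and 2.25% as lower in GABAergic nuclei, and 6.14% and 2.4% in glutamatergic nuclei. The list as a whole had medians of -0.01 and -0.04.

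Genes of channels and synapses lay slightly below 0 in glutamatergic nuclei. Of potassium channels, 24 of 36 lay below 0, and Kcnh1, Kcna6 and Kcnmb4 were counted as lower, where 2.4% of all genes were. Of calcium, sodium and HCN channels, 22 of 30 lay below 0, with Trpc4 and Hcn3 counted as lower and Cacnb3 as higher. Of synaptic vesicle genes, 24 of 36 lay below 0. Cplx1, which regulates vesicle fusion, at -0.32 (-0.57 to -0.07) and the vesicle protein Sv2c at -0.43 (-0.64 to -0.22) were counted as lower, and Doc2b, a calcium sensor, at 0.47 (0.21 to 0.72) as higher. The medians of these lists were -0.06, -0.06 and -0.05, beside 0.03 for all genes. In GABAergic nuclei they were -0.06, 0.03 and -0.00035. Of potassium channels, Kcnj9 and Kcnh8 were counted as higher there, Kcnh8 at 0.32 (0.12 to 0.52). Kcnh8 is among the leading genes of GABAergic cluster 20, of 48 rapamycin and 17 vehicle nuclei, and cluster 12, of 44 and 43. Of synaptic vesicle genes, Syt4 was counted as higher and Syt2, a calcium sensor of release, as lower, at -0.65 (-0.94 to -0.37). Ionotropic glutamate receptors lay below 0 for 11 and 13 of 16 members, of which none was counted as lower, while Grik3, a kainate receptor subunit, was counted as higher in glutamatergic nuclei, at 0.34 (0.19 to 0.49). Grik3 is among the leading genes of glutamatergic cluster 23, which held 29 rapamycin and 15 vehicle nuclei. Of all genes, 5.34% were counted as higher and 2.25% as lower in GABAergic nuclei, and 6.14% and 2.4% in glutamatergic nuclei.

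Markers of other cell types were read beside these lists. Of 33 glial and vascular markers, 8 were measured in GABAergic and 7 in glutamatergic nuclei. Their summed level was 276 CPM with rapamycin against 277 with vehicle in GABAergic nuclei, a ratio of -0.01 (-0.09 to 0.08), and 317 against 297 in glutamatergic nuclei, a ratio of 0.10 (0.02 to 0.17). Pituitary markers summed to ratios of 0.25 (0.06 to 0.44) and 0.20 (0.06 to 0.35), and blood markers to 0.18 (-0.02 to 0.38) and 0.14 (-0.06 to 0.34). Nuclei with at least 3 UMIs of other cell types made up 27.2% with rapamycin and 29.9% with vehicle of the GABAergic nuclei, and 36% and 37.7% of the glutamatergic nuclei. Without them the medians of ribosomal protein genes were 0.16 and 0.23, and those of oxidative phosphorylation 0.18 and 0.13.

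The 9 GABAergic and 10 glutamatergic large clusters show how far these patterns extend within a class. Summed ribosomal protein genes ran from 0.10 to 0.29 over the GABAergic and from -0.0042 to 0.35 over the glutamatergic clusters. Oxidative phosphorylation ran from 0.06 to 0.28 and from 0.01 to 0.28. Immediate-early genes spread more widely, from -0.88 to 0.34 and from -1.01 to 0.05. Pcsk1n ran from 0.18 to 1.45 and from -0.08 to 1.53. Clusters of 1 class share the same hashtags and are not replicates.

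**Figure D5:**
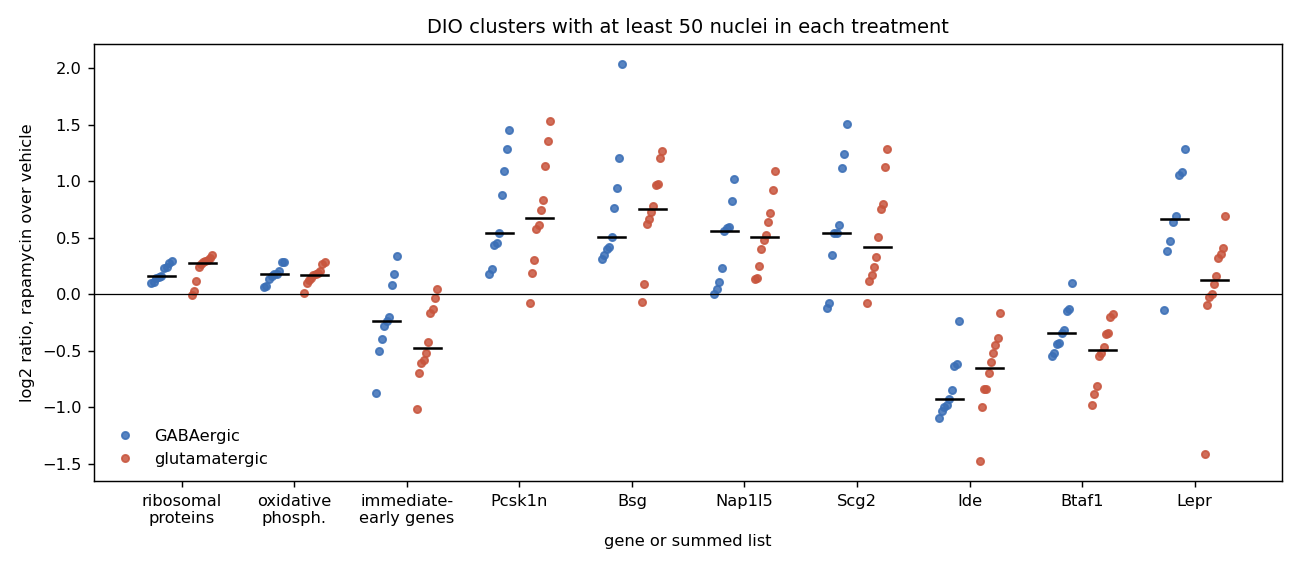
Log2 ratio, rapamycin over vehicle, in each of the 9 GABAergic and 10 glutamatergic clusters with at least 50 nuclei of each treatment, for summed gene lists and for single genes, 1 point a cluster with a bar at the median. Ide lies below 0 in every cluster shown, and oxidative phosphorylation genes lie above 0 in every cluster shown.

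The same split of nuclei was read in the other pools to see which ratios belong to the DIO pair of hashtags. In chow mice, 1.51% of GABAergic genes were counted as higher and 2.48% as lower, and 1.22% and 2.59% of glutamatergic genes. In OB mice the shares were 5.18% and 2.72%, and 4.44% and 2.65%. Ribosomal protein genes had medians of -0.0041 and -0.04 in chow mice and of 0.19 and 0.19 in OB mice. Oxidative phosphorylation genes had -0.05 and -0.05 in chow mice and 0.20 and 0.13 in OB mice. In glutamatergic nuclei, the log2 ratio of Pcsk1n was 0.76 in DIO, -0.00072 in chow and 0.81 in OB mice, and that of Bsg 0.64 in DIO, 0.20 in chow and 0.52 in OB mice. That of Fos was -2.76 in DIO, 0.01 in chow and 0.84 in OB mice, while in chow GABAergic nuclei Fos was counted as higher. Each pool is 1 capture with its own hashtags, so a difference between pools cannot be told apart from a difference between captures.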

How the data were processed

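Hypothalamic nuclei of 3 pools (chow, DIO, OB) were analysed, with 2 hashtags per pool. For each barcode the authors deposited unnormalised UMI counts of genes and counts of hashtags, made with Cell Ranger 6.0.0 on mm10, per the submitters' processing notes. The OB matrix names version 7.0.1 instead, per the file headers. A nucleus needed 500 UMIs, 300 genes and a mitochondrial share below 5%, and 1 OB nucleus failed. In DIO, 452 of 11405 nuclei had no hashtag margin of 1 and were left out. No doublet caller was run, and doublets within 1 hashtag are not seen. The 3 pools shared 31 to 38 barcodes.

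UMIs were summed and intervals computed with scipy 1.17.1 in Python 3.11.15, and recovery of known ratios was checked on simulated data. Each class of DIO nuclei was clustered with scanpy 1.11.5 and leidenalg 0.10.2 (2000 variable genes, 30 components, 15 neighbours, resolution 1.0), giving 31 GABAergic and 28 glutamatergic clusters. A cluster was named from at least 3 markers over 3-fold above the other nuclei and seen in over 10% of its own. Differences between classes or pools have normal intervals for counting error. Named were the 10 genes with the highest lower bound and the 10 with the lowest upper bound per class, 5 class differences per direction, and a short fixed list. Alternatives were a hashtag margin of 2, HTODemux of Seurat 5.3.0 (R 4.3.3, quantile 0.99), a stricter class cut, thinning, TMM factors of edgeR 4.0.16, equal totals per nucleus, equal cluster weights, leaving out nuclei with 3 UMIs of other-type markers or the nucleus with the most UMIs, and other UMI minimums. Equal weights for 5 depth bins were added after seeing the data. The members, the 28 gene lists and the naming rule were chosen with earlier results of these data known. Gene coordinates are from RefSeq, GRCm38.p6. Some results of single genes are not reported here.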

Additional observations from a re-analysis of the deposited data

Results flagged for a closer look

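Some log2 ratios were counted in opposite directions in DIO and chow nuclei of 1 class, or in both classes of DIO nuclei, and the differences were not tested because each treatment is 1 hashtag. In GABAergic nuclei, Nnat gave 0.52 (0.40 to 0.64) in DIO and -0.33 (-0.45 to -0.22) in chow mice, a difference of 0.856. Hdc gave -1.1 (-1.27 to -0.93) in DIO and 0.69 (0.47 to 0.90) in chow mice, a difference of -1.79, and Maob -0.73 (-1.07 to -0.40) in DIO and 0.64 (0.24 to 1.04) in chow mice, a difference of -1.36. Slc16a10 differed by -1.005, Tcf7l2 by -0.897, Syt2 by -0.995 and Kcnh8 by 0.808. Kcnh8 is among the leading genes of the suprachiasmatic-like GABAergic cluster 20, which held 48 rapamycin and 17 vehicle DIO nuclei. In glutamatergic nuclei, Tcf7l2 gave -1.06 (-1.4 to -0.74) in DIO and 0.65 (0.38 to 0.93) in chow mice, a difference of -1.72, Egflam differed by -1.44 and Ndufa11 by 0.916.

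Between the classes of DIO nuclei, Maob gave -0.73 (-1.07 to -0.40) in GABAergic and 0.66 (0.10 to 1.24) in glutamatergic nuclei, a difference of -1.39. Ttn gave -0.59 (-0.95 to -0.24) and 0.45 (0.13 to 0.79), a difference of -1.04. It is the first of the leading genes of glutamatergic cluster 18, which held 44 rapamycin and 18 vehicle nuclei, whose part was not tested. Col23a1 gave -0.49 (-0.92 to -0.07) and 0.47 (0.14 to 0.81), a difference of -0.961.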

How the results depend on the processing

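Of the values recomputed over all settings, 710 of single genes, 578 of gene lists and 53 counts of genes were taken as the same. That is, they kept their direction and moved by no more than their counting interval or 1.5 times. Further movement was seen in 75, 18 and 5, and 8 genes and 3 lists changed sign. Under thinning, most single genes did not stay the same: 30 did, 38 moved further and 6 changed sign. For gene lists under thinning the numbers were 23, 14 and 1, and for counts of genes 1 stayed and 4 moved. Thinning to 2000 UMIs, which keeps 426 rapamycin and 345 vehicle GABAergic and 738 and 565 glutamatergic nuclei, gave 109 higher and 135 lower genes in GABAergic nuclei, 179 higher in glutamatergic nuclei and 229 class differences, against 598, 252, 714 and 585. It also gave Myo1e 0.70, Slc26a4 0.11 and Pcsk1 0.50 in GABAergic nuclei, Pomc -0.16, Oxt -0.54 and Irs2 0.29 in glutamatergic nuclei, and a median of -0.14 for endoplasmic reticulum stress in GABAergic nuclei. With no minimum of UMIs, 443 genes were counted as lower in glutamatergic nuclei and the median of glial and vascular markers there was -0.045. Equal cluster weights gave Cartpt 0.024 in GABAergic nuclei, the stricter class cut gave Oxt -0.73 in glutamatergic nuclei, and leaving out nuclei with other-type markers gave neuropeptides a median of -0.23 in GABAergic nuclei. Apart from the smaller numbers that thinning leaves, the cause was not tested. All 4 thinned class shares moved. No paired analysis was possible because each pool holds 1 hashtag per treatment. Genes under 100 UMIs, Fos and Egr1 among them, rest on few molecules.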

Other observations

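In the 3337 rapamycin and 2419 vehicle DIO nuclei that met neither class rule, the genes of the mitochondrial genome had a median log2 ratio of -0.78, with 10 of 10 measured members below 0. Proteasome subunits had 26 of 31 members above 0 there and a median of 0.11. A suprachiasmatic-like GABAergic cluster held 48 rapamycin and 17 vehicle nuclei, and glutamatergic cluster 5, led by Myo5b, Postn and Drd3, held 122 and 58.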
